A study of Mus musculus with 24 samples.

Results

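The genes described here encode the machinery that brings a new protein into the endoplasmic reticulum (ER) and carries it onward in coated vesicles. They are 51 genes of 22392 in the deposited table, chosen by symbol: every listed symbol was matched to its Ensembl identifier through GENCODE M21, and all 51 were found. By role they are 8 genes of the signal recognition particle (SRP) and its receptor, 5 of the Sec61 translocon, 4 of the translocon-associated protein complex (TRAP), 5 of signal peptidase, 6 of oligosaccharyltransferase, 9 of the COPII coat, 7 of the COPI coat and 7 cargo or retrieval receptors. Of these, 50 reached the mean value of 10 needed for testing, and Kdelr3 did not.

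A protein bound for secretion is recognised by SRP as its signal peptide leaves the ribosome, docks at the SRP receptor and threads through the Sec61 channel. Signal peptidase then removes the signal peptide, and oligosaccharyltransferase attaches a branched sugar to asparagines. COPII vesicles carry folded cargo from the ER to the Golgi, and COPI vesicles bring escaped ER residents and recycling receptors back. Hepatocytes use this route for nearly all plasma proteins, and for lipoproteins, which need large COPII carriers.

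The livers came from CD2F1 mice in 3 groups of 8, with 1 mouse per library. CT mice were sham-injected and had no tumour. C26 mice carried the C26 tumour, a transplanted colon carcinoma that makes mice waste, and had no treatment. C26-CHO mice had this tumour too and ate cholestyramine, which traps intestinal bile acids, as 2% of their diet from day 1 to day 10 after cell injection. No genetic alteration is named in the labels, and the sham-injected controls had no cholestyramine, so the resin was tested only in tumour-bearing mice.

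Libraries held 19.9 to 30.5 M reads, recovered from the deposited values. Mitochondrially encoded genes took 4.09% to 7.51% of the reads in CT (median 6.47%), 3.07% to 3.74% in C26 (3.45%) and 3.14% to 4.66% in C26-CHO (3.37%), so CT and C26 did not overlap. All 10 hepatocyte markers were present in every group, with a summed level of 1745049 to 1992426 in CT and 1590965 to 1807639 in C26. Sums of markers of some other cells differed between the groups, and a sum can rest on a few genes. The summed level of 10 macrophage and Kupffer cell markers was 5338 to 7572 in CT and 9437 to 12221 in C26 (0 of 10 at 0). That of 10 neutrophil markers was 37.3 to 79.3 in CT and 279 to 1027 in C26 (0 of 10 at 0). Of these 10 neutrophil markers, 9 averaged under 10 in CT and 5 in C26. Plasma and B cells, which are rich in this machinery, showed 319 to 727 in CT and 352 to 542 in C26 over the 9 markers in the table. Pancreatic acinar markers, another secretory cell type, were at 1406 in C26 mouse 5 and 2240.2 in C26-CHO mouse 4. Endothelial markers (8) were at 4433 to 6127 in CT and 5929 to 7962 in C26, stellate and fibroblast markers (8) at 4205 to 5962 and 5103 to 7331, and cholangiocyte markers (6) at 312 to 473 and 5471 to 11394. Of the cholangiocyte markers 1 averaged under 10 in CT and 2 in C26, so not all of them rose with their sum. The part of the mitochondrial share and of these cells in the results below was not tested beyond leaving out those 2 mice. In whole liver, fewer cells of a type and less RNA per cell cannot be told apart.

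The first comparison, C26 against CT, asks what the tumour did to this machinery in the liver. Most of it rose: 41 of 50 tested genes were called higher and 4 lower, at an adjusted p under 0.05 over all 14040 tested genes (limma). Among all tested genes 33.3% were called higher and 32.9% lower. The median of the 50 genes was a log2 fold change of 0.37, a 1.30-fold rise, where the median of all tested genes was 0.01. In 25 genes all 8 C26 mice lay above all 8 CT mice, as in 16.9% of all tested genes, and in Sar1b all 8 lay below, as in 18% of all tested genes. The changes were modest in size: 14 genes rose at least 1.5-fold, as did 17.4% of all tested genes, and 1, Stt3b, more than doubled. Without C26 mouse 5 and C26-CHO mouse 4, 41 genes were called higher and 3 lower.

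**Figure D1:**
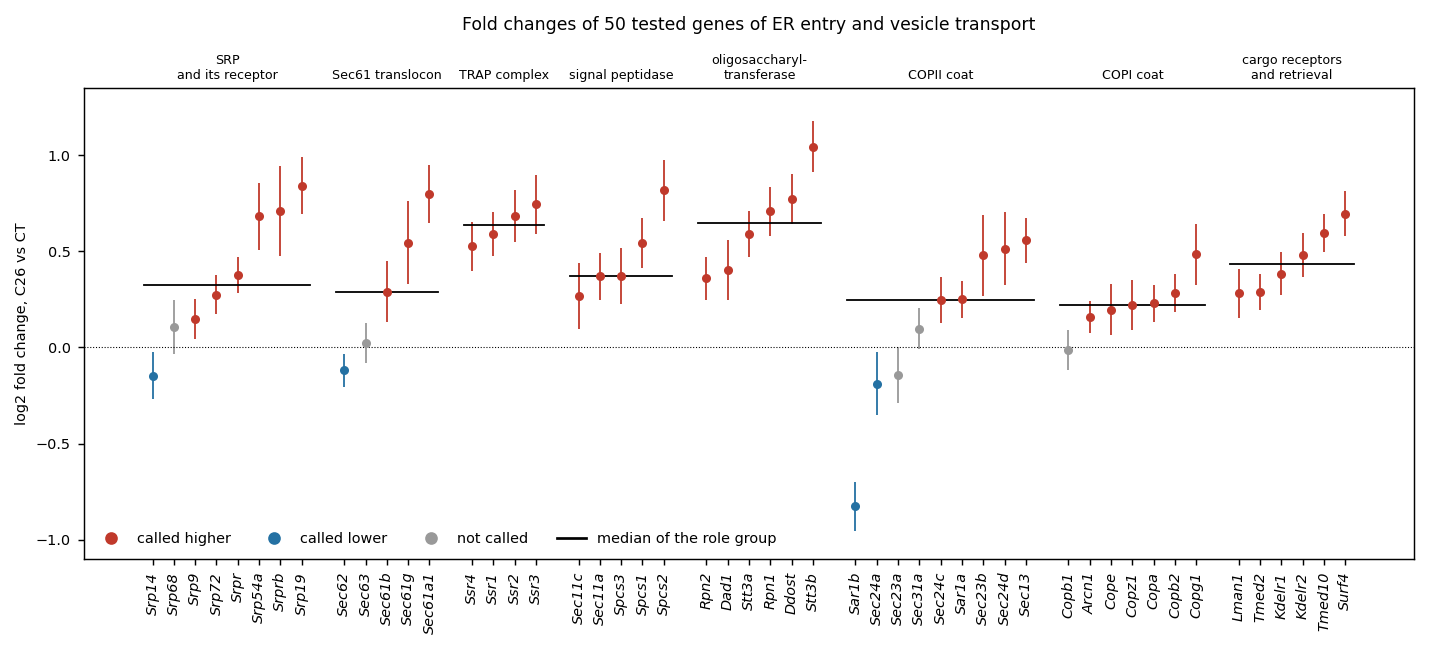
Log2 fold change of C26 against CT for the 50 tested genes, in 8 role groups. Points are fitted values from 8 mice per group, bars are 95% confidence intervals, and horizontal lines are role medians. Oligosaccharyltransferase and TRAP have the highest medians, 0.65 and 0.64, and Sar1b is the lowest gene at -0.83.

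These values depend on how libraries are scaled. The deposited scaling holds the middle of all genes level between groups. When every library was instead scaled to the same total of reads, a choice made after seeing the data, the median of all tested genes in C26 against CT was -0.28 and that of the 50 genes 0.03. The 50 genes then lay 0.31 above all genes, against 0.37 with the deposited scaling, and 43 of them lay above the median of all genes. A change of scale moves all genes of a library alike, apart from the 1 added before the log. This gap therefore cannot test which scaling is right. With equal read totals 18 of the 50 were called higher, all of them among the 41, and 13 lower. Of all 14040 tested genes 2337 were called higher and 8196 lower on that scale. Of the 41 genes 13 had a negative fold change there. As a share of all reads the 51 genes took 0.528% ± 0.0262 in CT, 0.539% ± 0.0212 in C26 and 0.566% ± 0.0266 in C26-CHO (mean ± SD, n = 8 each). Directions below are those of the deposited scaling, and the genes whose sign turned at equal read totals are named with each role. Other rises lost their call there without a change of sign. At equal read totals COPI had 0 of 7 genes called higher and 4 lower, COPII 1 and 4 of 9, and Sec61 1 and 2 of 5. SRP and its receptor had 3 and 3 of 8, signal peptidase 2 and 0 of 5, and the cargo and retrieval receptors 3 and 0 of 6.

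**Figure D2:**
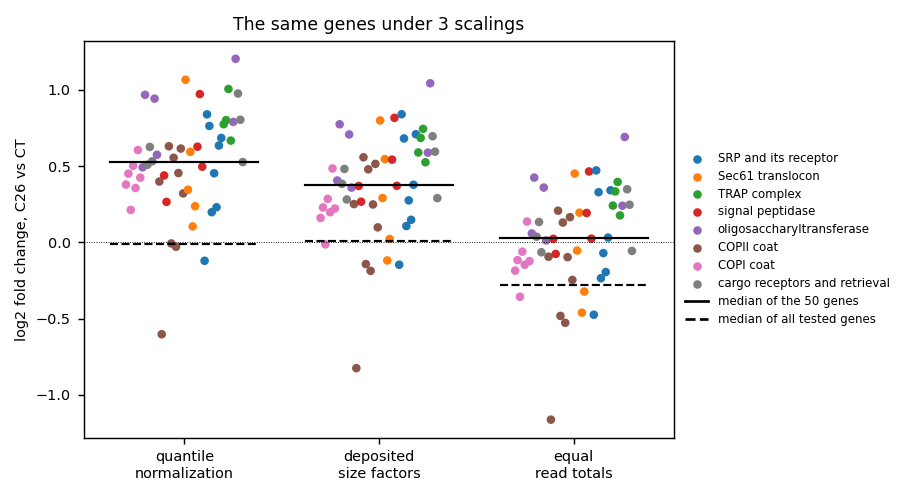
Log2 fold change of C26 against CT for the same 50 genes under quantile normalization, the deposited size factors and equal read totals. Each point is a gene coloured by role. The solid line (median of the 50 genes) falls from 0.53 to 0.37 to 0.03, and the dashed line (median of all tested genes) from -0.01 to 0.01 to -0.28, so the gap between them persists.

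SRP and its receptor gave 6 genes higher, 1 lower and 1 not called, with a median of 0.33, although the rises of Srp9 and Srp72 and the value of Srp68 turned negative at equal read totals (-0.20, -0.07 and -0.24). Srp19, an SRP protein needed to assemble the particle's signal-binding domain, had values from 296 to 386 in CT (median 335), 552 to 642 in C26 (611) and 445 to 692 in C26-CHO (575). It rose by 0.84 on the log2 scale in C26 (SE 0.0719, adjusted p = 1.31e-10). Every tumour-bearing mouse was above every CT mouse for this gene. Srprb, the membrane-anchoring subunit of the SRP receptor, ran from 195 to 343 in CT (median 265), 332 to 497 in C26 (442) and 309.9 to 578 in C26-CHO (419.6). Its rise was 0.71 (SE 0.114, adjusted p = 5.25e-06), and the lowest C26 mouse reached just into the CT range.

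Srp54a, which binds the signal peptide, rose by 0.68, but 2 near-identical copies, Srp54b and Srp54c, could share its reads and its value is uncertain. The other receptor subunit, Srpr, rose by 0.38, and its exons overlap 2 genes on the opposite strand. Srp14, which with Srp9 pauses translation, went the other way. Its values were 570.5 to 644 in CT (median 597), 482 to 646 in C26 (536) and 542 to 657 in C26-CHO (566). The fall of 0.15 was small (SE 0.0591, adjusted p = 0.0311), the groups overlapped, and leaving out any of 5 single mice (CT 1 or 8, C26 4, 6 or 8) ended the call.

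In the Sec61 translocon 3 genes rose, 1 fell and 1 was not called, with a median of 0.29, and the rise of Sec61b turned to -0.05 at equal read totals. Sec61a1 encodes the channel itself. Its values were 3224 to 4179 in CT (median 3449.6), 5611 to 6759 in C26 (6168) and 5088 to 7886 in C26-CHO (6224). The rise was 0.80 (SE 0.0728, adjusted p = 4.14e-10), with both tumour groups clear of the CT range. Sec61g, a small subunit that braces the channel, had 539 to 819 in CT (median 669), 682 to 1226 in C26 (992) and 935 to 1328 in C26-CHO (1068). It rose by 0.55 (SE 0.104, adjusted p = 5.34e-05) with some overlap between CT and C26.

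The accessory proteins Sec62 and Sec63, which serve proteins imported after their translation, did not follow the channel. Sec62 had 2679 to 2892 in CT (median 2749.5), 2385 to 2742 in C26 (2550.3) and 2305 to 2745 in C26-CHO (2532). Its fall of 0.12 (SE 0.041, adjusted p = 0.013) turned to 0.10 under quantile normalization. Sec63 stood at 0.02 in C26 (adjusted p = 0.726) and at -0.32 at equal read totals. The ordering within the complex was therefore Sec61a1, Sec61g and Sec61b above Sec63 and Sec62 under each of those scalings. Equal read totals could hardly alter this order, since they shift all genes of a library nearly alike.

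All 4 TRAP genes rose, and in each all C26 mice lay above all CT mice. TRAP sits beside Sec61 and helps certain signal peptides to open the channel. Ssr3 had 3767 to 4957 in CT (median 4435), 6417 to 8494 in C26 (7229) and 5909.5 to 8817 in C26-CHO (7579). Its rise was 0.74 (SE 0.0744, adjusted p = 2.34e-09). Ssr2 had 1088 to 1242 in CT (median 1164), 1646 to 2209.6 in C26 (1879.7) and 1518 to 2125 in C26-CHO (1804), and its rise was 0.68 (SE 0.0659, adjusted p = 1.14e-09). Ssr1 and Ssr4 rose by 0.59 and 0.52, and all 4 genes were also called higher at equal read totals, with a median of 0.29.

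Signal peptidase genes were all called higher, 5 of 5, with a median of 0.37, but Sec11c turned to -0.08 at equal read totals. Spcs2, a non-catalytic subunit that contacts the translocon, led the group. It had 1183 to 1764 in CT (median 1379.7), 2159 to 2961 in C26 (2469) and 2030.1 to 2705 in C26-CHO (2341), a rise of 0.82 (SE 0.0761, adjusted p = 6.36e-10) without overlap. Spcs1, a small subunit, had 864 to 1020.5 in CT (median 931), 1182 to 1509 in C26 (1374) and 1172 to 1471 in C26-CHO (1277). Its rise was 0.54 (SE 0.0632, adjusted p = 3.43e-08), and again no C26 mouse reached down to the CT range. Spcs3, which the enzyme needs for activity, rose by 0.37 with overlap. The catalytic subunits were among the smaller changes. Sec11a had 837 to 1025 in CT (median 888), 1003 to 1339 in C26 (1188) and 1067 to 1290.1 in C26-CHO (1152), a rise of 0.37. Sec11c had 333 to 493 in CT (median 430.0), 479 to 554 in C26 (507) and 411 to 663 in C26-CHO (482), a rise of 0.27 with overlap.

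Oligosaccharyltransferase had the highest median: 6 of 6 genes rose, each without overlap between CT and C26, the median was 0.65, and all 6 stayed positive at equal read totals, where the median became 0.30 and 4 were called higher. Stt3b, a catalytic subunit that can glycosylate sites missed during translation, lies at chr9:115242581-115310421 on the minus strand (GRCm38). Its values were 1614 to 1893 in CT (median 1690.2), 3152 to 3895 in C26 (3572) and 2489 to 3681 in C26-CHO (3432). The rise was 1.04 on the log2 scale, 2.06-fold (SE 0.0642, adjusted p = 2.86e-13), the largest of the 50 genes. All 16 tumour-bearing mice were above all CT mice.

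Ddost, a non-catalytic subunit that holds the enzyme together, had 1907 to 2353 in CT (median 2144), 3324 to 4079.6 in C26 (3674) and 2875 to 4046 in C26-CHO (3429.5). It rose by 0.77 (SE 0.0632, adjusted p = 5.65e-11), with both tumour groups above CT. Stt3a is the catalytic subunit that works beside the translocon. It had 2215 to 2649 in CT (median 2538), 3473 to 4033 in C26 (3691) and 3164 to 4430.3 in C26-CHO (3883), a rise of 0.59. The structural subunits Rpn1, Dad1 and Rpn2 rose by 0.71, 0.40 and 0.36.

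**Figure D3:**
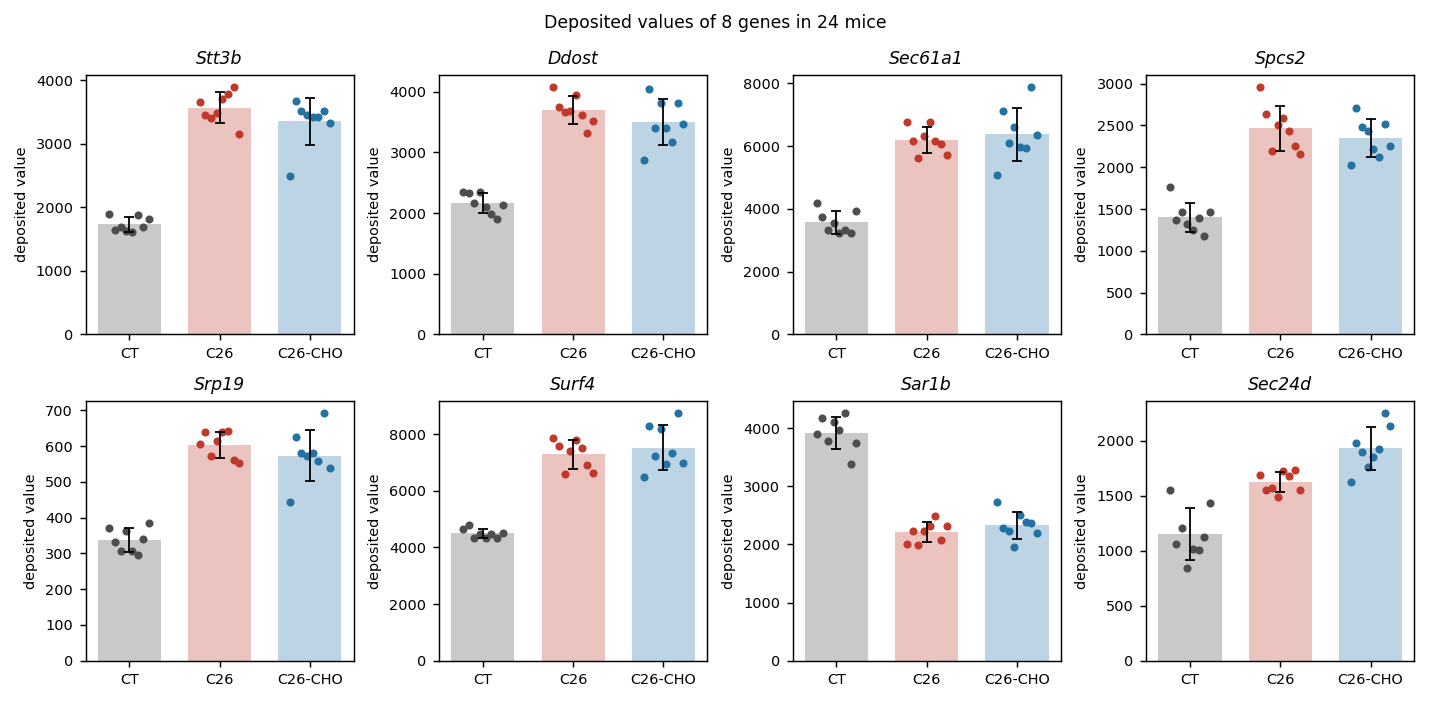
Deposited values (reads divided by the library's size factor) of Stt3b, Ddost, Sec61a1, Spcs2, Srp19, Surf4, Sar1b and Sec24d. Points are mice, bars are means and whiskers are SD over 8 mice. In Stt3b the C26 mice lie between 3152 and 3895 and the CT mice between 1614 and 1893, while in Sar1b the order is turned, 1998 to 2487 against 3384 to 4257.

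The COPII coat was mixed: 5 of 9 genes rose, 2 fell and 2 were not called, with a median of 0.25, and the rises of Sar1a and Sec24c turned to -0.09 and -0.10 at equal read totals. Sar1b, a small GTPase that starts the coat and is needed to export chylomicrons and very large lipoproteins, lies at chr11:51763687-51791925 on the plus strand (GRCm38). Its values were 3384 to 4257 in CT (median 3936), 1998 to 2487 in C26 (2233) and 1951 to 2736 in C26-CHO (2330.4). The fall was 0.83 on the log2 scale (SE 0.0619, adjusted p = 1.15e-11), to 0.564 of the CT level. No tumour-bearing mouse reached the lowest CT mouse. In CT livers Sar1b was the most abundant of the 51 genes per length, at a mean of 3119 per kilobase of exon, above Tmed2 at 1834, and in C26 its mean was 1760.4 per kilobase.

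Sec13, a cage protein of the outer coat, rose most in this group. It had 779 to 931 in CT (median 845), 1057 to 1389 in C26 (1251) and 1209 to 1462 in C26-CHO (1306), a rise of 0.56 (SE 0.0568, adjusted p = 3.27e-09) without overlap. Its partner Sec31a stood at 0.10 and was not called (adjusted p = 0.103), and turned to -0.25 at equal read totals. Sar1a, the relative of Sar1b, had 1582 to 1930.3 in CT (median 1693), 1909 to 2207 in C26 (2023) and 1989 to 2428 in C26-CHO (2142), a rise of 0.25 (SE 0.0466, adjusted p = 3.89e-05). Sar1a and Sar1b thus went in opposite directions with the deposited scaling.

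In the inner coat Sec23b rose and its relative Sec23a was not called. Sec23b had 738 to 1279.8 in CT (median 874), 1114 to 1349 in C26 (1268) and 891 to 1579.6 in C26-CHO (1219), and rose by 0.48 (SE 0.102, adjusted p = 0.000194). Sec23a, which like Sec23b activates the GTPase of Sar1, had 1513 to 2036 in CT (median 1704), 1393 to 1855 in C26 (1596) and 1580.1 to 1989 in C26-CHO (1829.7), a difference of -0.14 that was not called (adjusted p = 0.0783). The groups overlapped in both genes. Leaving out CT 4 or C26 6 brought Sec23a past the threshold, at -0.17 and -0.18.

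Sec24 proteins bind the cargo. Sec24d had 841 to 1556 in CT (median 1095), 1492 to 1732 in C26 (1626) and 1627 to 2251 in C26-CHO (1913), a rise of 0.51 (SE 0.0919, adjusted p = 2.35e-05). Sec24c had 2023 to 2593 in CT (median 2247), 2467 to 2899 in C26 (2705) and 2527 to 3179 in C26-CHO (2692), a rise of 0.25. Sec24a had 1739 to 2431 in CT (median 2035), 1594 to 2103 in C26 (1773) and 1535 to 2161 in C26-CHO (2022). Its fall of 0.19 (SE 0.0802, adjusted p = 0.0424) was lost when any of 9 single mice was left out (CT 1, 3, 6 or 8, C26 1 to 5), with values of -0.15 to -0.18.

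The COPI coat had the lowest median, 0.22: 6 of 7 genes were called higher and Copb1 was not, and the rises of Copa, Copb2, Cope, Copz1 and Arcn1 turned to -0.12, -0.06, -0.15, -0.12 and -0.19 at equal read totals. Copg1, which links the coat to cargo and to ARF, had 1123 to 1648 in CT (median 1308), 1644 to 2071 in C26 (1897) and 1733 to 2497 in C26-CHO (1972). It rose by 0.48 (SE 0.0776, adjusted p = 5.29e-06), with the lowest C26 mouse just below the highest CT mouse. Copb2, an outer coat protein that recognises retrieval signals, had 2541 to 2951 in CT (median 2718), 2967 to 3614 in C26 (3338) and 3217 to 3841 in C26-CHO (3517), a rise of 0.28 (SE 0.0483, adjusted p = 1.16e-05) without overlap. Copb1, a core subunit, stood at -0.01 (adjusted p = 0.825), at 0.21 under quantile normalization and at -0.36 at equal read totals.

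All 6 tested receptors of cargo and retrieval rose, each without overlap between CT and C26, with a median of 0.43, though Lman1 and Tmed2 turned to -0.07 and -0.06 at equal read totals. Surf4, which carries lipoproteins and other soluble cargo out of the ER, had 4332 to 4804 in CT (median 4468), 6594 to 7864 in C26 (7456) and 6476 to 8734 in C26-CHO (7292). Its rise was 0.70 (SE 0.0574, adjusted p = 6.81e-11), and its annotation overlaps Surf2 on the opposite strand. Tmed10, a p24 protein of early secretory vesicles, had 2252 to 2701 in CT (median 2414), 3508 to 3869 in C26 (3730.4) and 3055 to 3804 in C26-CHO (3586), a rise of 0.59 (SE 0.0482, adjusted p = 5.01e-11). Lman1, the receptor for clotting factors V and VIII, and Tmed2, another p24 protein, rose by 0.28 and 0.29.

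The KDEL receptors return escaped ER chaperones. Kdelr1 had 1312 to 1625 in CT (median 1389.6), 1709 to 1979 in C26 (1848) and 1693 to 2124 in C26-CHO (1840.1), a rise of 0.38. Kdelr2 had 1346 to 1530.0 in CT (median 1441), 1882 to 2116 in C26 (2033) and 1683 to 2499.8 in C26-CHO (2084), a rise of 0.48. Kdelr3 was close to the floor, with 0.862 to 5.55 in CT (median 2.28), 3.13 to 14.3 in C26 (9.13) and 3.03 to 15.1 in C26-CHO (7.93). Its 2 tumour groups were mostly above CT, and 7 of 8 C26 mice exceeded every CT mouse. When no filter on low values was used, Kdelr3 was called higher in C26, at 1.501 on the log2(value + 1) scale (SE 0.312, adjusted p = 0.000202). It overlaps Ddx17, a strongly expressed gene on the opposite strand with a mean value of 4064, and whether the counting used strand is not given in the sources used here.

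The roles were then compared within each library, as the mean log2 value of a role minus that of the COPI coat, both relative to the CT mean, which removes the library's scaling. Oligosaccharyltransferase minus COPI lay between -0.06 and 0.12 in CT mice and between 0.34 and 0.48 in C26 mice. TRAP minus COPI lay between -0.09 and 0.11 in CT and between 0.29 and 0.50 in C26. The cargo and retrieval receptors minus COPI lay between -0.07 and 0.08 in CT and between 0.17 and 0.32 in C26, and SRP minus COPI between -0.11 and 0.08 in CT and between 0.10 and 0.19 in C26. In these 4 role groups the C26 mice were clear of the CT mice. COPI, the reference, had the lowest gene median of all roles in C26 against CT in these same data (0.22). Positive differences are therefore partly built into this choice. How often other gene sets separate from COPI in this way was not counted, so the gaps are a description only.

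Signal peptidase minus COPI lay between -0.10 and 0.13 in CT and between 0.11 and 0.34 in C26, with slight overlap. Sec61 minus COPI lay between -0.08 and 0.09 in CT and between -0.04 and 0.15 in C26, with broad overlap. COPII minus COPI lay between -0.08 and 0.12 in CT and between -0.19 and -0.05 in C26. By the median of the C26 mice the order was glycosylation and TRAP highest, then signal peptidase, the receptors, SRP, the Sec61 group, COPI and COPII, given here as a description with no test. The COPII mean includes Sar1b, which stood at -0.83. By the median of its genes COPII (0.25) lay above COPI (0.22).

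**Figure D4:**
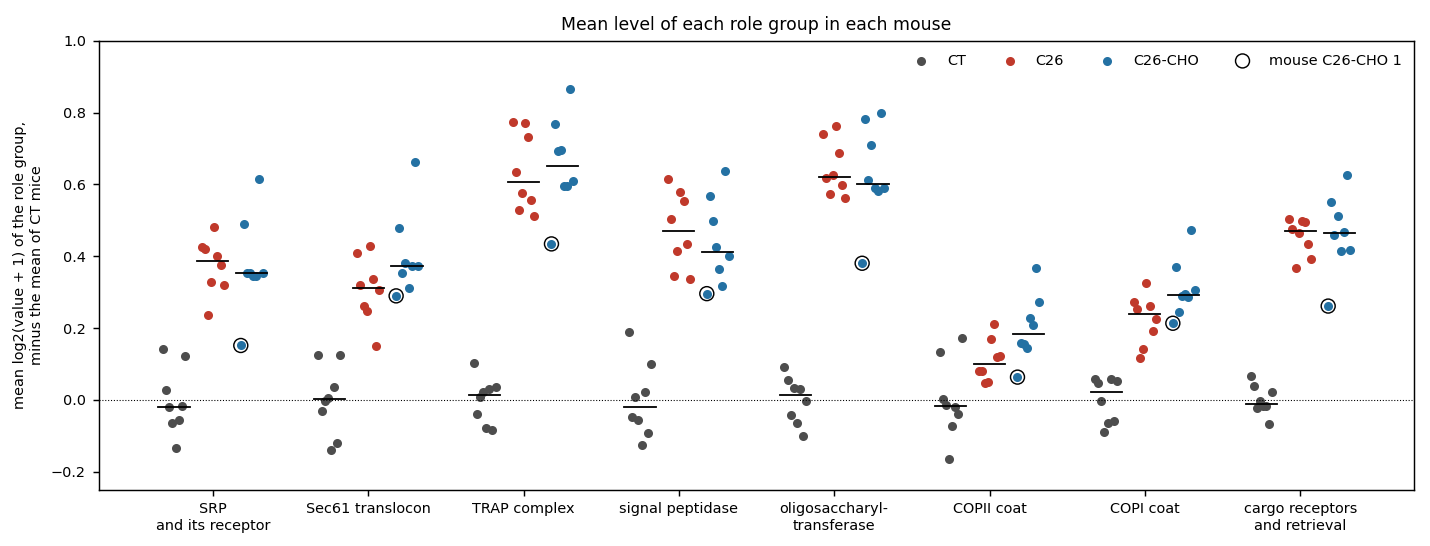
Mean log2(value + 1) of each role group in each mouse, minus the mean of the CT mice. Points are mice, horizontal lines are group medians, and the ringed point is C26-CHO mouse 1. In oligosaccharyltransferase the C26 mice lie between 0.56 and 0.76 and the CT mice between -0.10 and 0.09. With the deposited scaling C26-CHO mouse 1 lies lowest in its group in every role.

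Several subunits come as interchangeable relatives, so the balance between them was tested as a log2 ratio within each library, in 8 pairs and 3 comparisons with an exact two-sided permutation test over mice and adjustment over the 24 tests. With 8 mice against 8 the smallest p the design allows is 0.000155. The ratios are not per length, so only their change between groups was read. Ratios of other gene pairs were not tested, so how common such shifts are among all genes is not known. The Stt3b to Stt3a ratio averaged -0.52 ± 0.0864 in CT and -0.07 ± 0.0549 in C26 mice (mean ± SD, n = 8, exact permutation test, adjusted p = 0.000622). Sar1b to Sar1a went from 1.19 ± 0.191 to 0.12 ± 0.0633, a shift of -1.08 (n = 8, exact permutation test, adjusted p = 0.000622). Neither pair had overlapping groups.

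Sec23b to Sec23a shifted by 0.62 (exact permutation test, adjusted p = 0.00107), from -0.95 ± 0.259 to -0.33 ± 0.132. Sec24d shifted by 0.70 against Sec24a (exact permutation test, adjusted p = 0.000622) and by 0.27 against Sec24c (exact permutation test, adjusted p = 0.0234). The balance of the catalytic subunits Sec11c and Sec11a had a shift of -0.10 that was not called (exact permutation test, adjusted p = 0.169). Kdelr2 against Kdelr1 had a shift of 0.10, also not called (exact permutation test, adjusted p = 0.16). Kdelr3 against Kdelr1 shifted by 1.12 (exact permutation test, adjusted p = 0.00746), on the few reads of Kdelr3.

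**Figure D5:**
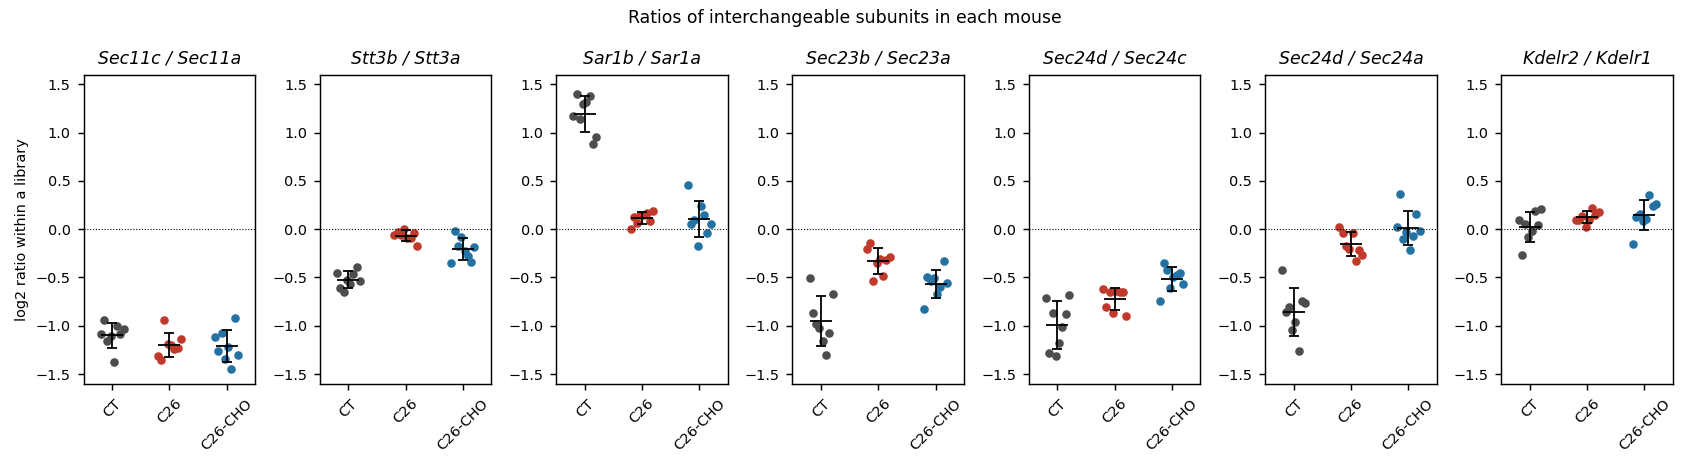
Log2 ratio of 7 pairs of related subunits within each library. Points are mice, and dashes with whiskers are the mean and SD over 8 mice. Sar1b to Sar1a runs from 0.88 to 1.40 in CT and from 0.00 to 0.19 in C26, and Sec24d to Sec24c rises in steps from CT (-0.99) to C26 (-0.72) to C26-CHO (-0.52).

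The second comparison, C26-CHO against C26, asks what cholestyramine changed in tumour-bearing mice. None of the 50 genes was called higher or lower by limma, where 0.556% of all tested genes were called higher and 0.15% lower. By edgeR and by DESeq2 0 genes were called too. Each of the 3 tools had 4 genes with an unadjusted p under 0.05, and by limma these were 8% of the 50 genes where 13% of all tested genes had such a p. That number was 3 to 7 with each mouse left out (7 without C26 mouse 5), 8 without C26 mouse 5 and C26-CHO mouse 4, and 12 at equal read totals. All 14040 tested genes gave 1751 without C26 mouse 5, 1970 without both of these mice and 1904 at equal read totals. In each of these fits the share among the 50 genes was the higher one. The median was 0.04, with 33 positive and 17 negative values, but it turned to -0.0251 under quantile normalization, where 21 of the 50 genes lay above the median of all tested genes. The 95% intervals of all 50 genes lay between -0.26 and 0.43. Each interval is for 1 gene with 8 mice per group and the deposited scaling, and their outer limits have no joint 95% coverage.

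The 4 genes with limma's unadjusted p under 0.05, chosen after their values were seen, were all higher with the resin. Sec24d had a difference of 0.24 (SE 0.0919, adjusted p = 0.224), and 7 of 8 C26-CHO mice exceeded every C26 mouse. Sec63 had 0.15 (SE 0.0506, adjusted p = 0.175), from 3248 to 3579 in C26 (median 3433) and 3514 to 4447 in C26-CHO (3757). Sec23a had 0.19 (adjusted p = 0.224) and Copz1 0.14 (adjusted p = 0.349). All 7 COPI genes had positive differences, of 0.05 to 0.14, also at equal read totals, and all 5 signal peptidase genes had negative ones, of -0.07 to -0.01, of which 3 turned positive at equal read totals. None of these 12 genes was called.

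The ratios of relatives gave 3 calls in this comparison, with no share among other gene pairs to set beside them. Sec24d to Sec24c was higher in C26-CHO by 0.21 (n = 8 each, exact permutation test, adjusted p = 0.00995), which moved it further from CT. Sec23b to Sec23a was lower by 0.24 than in C26 (difference -0.24, exact permutation test, adjusted p = 0.00983), and Stt3b to Stt3a had a difference of -0.14 (exact permutation test, adjusted p = 0.0218), both toward CT. The ranges of the 2 groups overlapped in all 3 pairs. Sar1b to Sar1a had a difference of -0.01 (exact permutation test, adjusted p = 0.881). All 3 calls held when each mouse was left out in turn.

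With the deposited scaling C26-CHO mouse 1 stood apart from its group. Of the 45 genes called in C26 against CT, it lay between the CT and C26 means in 32 and nearest to the CT side of its group in 30, at a median of 0.67 of the way from CT to C26. Its share of mitochondrial reads, 4.66%, was also the highest of its group, the others having 3.14% to 3.78%, and lay within the CT range; the part of this in its values was not tested. Mouse 1 was the lowest C26-CHO mouse in all 8 role means, and C26-CHO mouse 7 was the highest in all 8. The role means of a library share its scaling, so they are not separate signs. As a share of all reads the genes described here took 0.563% in mouse 1. This was above C26-CHO 3, 4 and 6 (0.542%, 0.534% and 0.554%). It was below C26-CHO 2, 5, 7 and 8 (0.569%, 0.572%, 0.622% and 0.572%). How many of all tested genes place mouse 1 toward CT was not counted. Without mouse 1 the median difference from C26 was 0.06 and 0 genes were called, and without mouse 7 it was 0.00 and 0 were called.

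The third comparison, C26-CHO against CT, shares its CT mice with the first and its C26-CHO mice with the second. It gave 44 genes higher and 2 lower, Sar1b and Sec62, with a median of 0.40, where 31.3% of all tested genes were called higher and 30.9% lower. Side by side with C26 against CT, Stt3b had 0.95 and 1.04, Sec61a1 0.83 and 0.80, Sec24d 0.76 and 0.51, and Sar1b -0.75 and -0.83. Sec31a, Sec63 and Srp68 were called higher here, at 0.17, 0.17 and 0.16, and each turned to -0.14 at equal read totals. The call of Srp68 ended when any of 8 single mice was left out (CT 3 to 7, C26-CHO 2, 6 or 7), and without C26-CHO mouse 7 its value was 0.11 (adjusted p = 0.0974).

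At equal read totals 22 of the 50 genes were higher and 8 lower in C26-CHO against CT, with a median of 0.09 where all tested genes had -0.25. Of all 14040 tested genes 2222 were called higher and 7954 lower on that scale. On the deposited scale the role medians were 0.66 for oligosaccharyltransferase, 0.65 for TRAP, 0.46 for the receptors, 0.42 for Sec61, 0.36 for signal peptidase, 0.33 for SRP, 0.31 for COPI and 0.29 for COPII.

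Neighbouring genes of the pathway were counted the same way in C26 against CT, where 33.3% of all tested genes were called higher and 32.9% lower. In each list only the called genes with the largest absolute changes are named, so they do not stand for their list. The remaining oligosaccharyltransferase subunits gave 3 higher and 0 lower of 6, led by Ostc and Krtcap2, which belong to the Stt3a form of the enzyme, at 1.01 and 0.65, and by Tmem258 at 0.30, which turned to -0.04 at equal read totals. Genes that build the sugar on its dolichol carrier gave 9 higher and 5 lower of 20 with a median of 0.09. The mannosyltransferase genes Alg12 and Alg3 rose by 1.55 and 0.70 and the glucosyltransferase gene Alg8 by 1.25. Targeting and membrane insertion genes gave 8 higher and 4 lower of 20 with a median of 0.08, led by Tram2 at 1.41, Srp54c at 0.60 and Caml, an insertion receptor for tail-anchored proteins, at 0.56.

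ER exit site genes gave 6 higher and 3 lower of 11, with a median of 0.21. Sec31b fell by 1.49, and Mia2, which helps load large cargo into COPII carriers, fell by 0.68. Mcfd2, the partner of Lman1, rose by 0.70. COPI and ARF genes gave 10 higher and 3 lower of 16 with a median of 0.27, and the p24 proteins Tmed3 and Tmed9 rose by 1.17 and 1.07 and the ARF regulator Arfgap3 by 0.91. Tethers and SNAREs of ER-Golgi traffic gave 8 higher and 3 lower of 16 with a median of 0.12. Stx18, a SNARE of retrograde arrival at the ER, rose by 0.98, Stx5a by 0.49 and the tether Uso1 by 0.46.

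Regulators of ER stress gave 9 higher and 0 lower of 11 with a median of 0.59. Creb3l2, a membrane-bound factor that drives secretory genes, rose by 1.47, Xbp1, the factor activated by unconventional splicing, by 1.46, and Ddit3, a stress factor, by 1.15. In C26-CHO against C26 no gene of these 7 lists was called. Ddit3 had the lowest adjusted p among these regulators, with a difference of -0.53 (SE 0.138, adjusted p = 0.0737).

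Xbp1 and Atf6 act through short promoter elements. Xbp1 was higher in C26 also at equal read totals, by 1.11, while Atf6, named here for its motifs, stood at 0.20 (limma, adjusted p = 0.0101) and turned to -0.14 at equal read totals. The RefSeq promoters of the genes (250 bases before to 50 after the start, GRCm38.p6) were searched on both strands. Promoters were found for 41 of the 51 genes, 44 promoters in all. The ER stress element ERSE (CCAAT, 9 free bases, CCACG) was in 0 of 44, against 0.119% of all 32851 promoters and 0.146% of the 12995 promoters of tested genes, and ERSE-II (ATTGG, 1 free base, CCACG) in 0 of 44, against 0.037% and 0.062%. The unfolded protein response element UPRE (TGACGTGG) was in 5 of 44, or 11.4%, against 0.676% of all promoters and 0.985% of those of tested genes. It overlaps the shorter motif CCACGT, added after the first search, which was in 18 of 44, or 40.9%, against 8.31% and 11.1%.

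The 5 stretches with UPRE are shown because they place a match in 2 COPII genes, 2 COPI genes and Kdelr3, with the match in capitals, 5′ to 3′ along the gene's strand.
Sec24d, chr3:123267459-123267488, plus strand: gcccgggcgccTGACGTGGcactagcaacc
Sec23a, chr12:59011993-59012022, minus strand: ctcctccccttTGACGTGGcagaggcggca
Copb2, chr9:98563713-98563742, plus strand: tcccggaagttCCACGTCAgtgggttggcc
Copb1, chr7:114254690-114254719, minus strand: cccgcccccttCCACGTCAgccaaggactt
Kdelr3, chr15:79516367-79516396, plus strand: tggccgccccgCCACGTCAccgcgcggcca
Sec24d and Sec23a carry the motif as written and the other 3 its reverse complement. Of the 4 that were tested, Sec24d and Copb2 rose in C26 and Sec23a and Copb1 were not called.

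Tested genes with CCACGT had a median of 0.38 in C26 against CT (16 genes), and those with a promoter but no CCACGT had 0.38 (24 genes). By role CCACGT was found in 6 of 9 COPII genes, 4 of 6 COPI genes and 0 of 6 oligosaccharyltransferase genes. The 100 bases before the start are shown for the gene that rose most and the gene that fell most, neither of which held any of the 4 motifs in its promoter.
Stt3b, chr9:115310469-115310568, minus strand: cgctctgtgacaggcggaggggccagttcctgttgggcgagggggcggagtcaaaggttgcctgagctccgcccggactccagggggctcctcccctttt
Sar1b, chr11:51763563-51763662, plus strand: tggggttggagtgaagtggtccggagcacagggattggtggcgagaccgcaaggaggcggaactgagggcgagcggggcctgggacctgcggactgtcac
A match is a string of letters in the reference and not a binding site, and no match says only that these letters are not in this window.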

How the data were processed

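RNA was sequenced from 24 mouse livers. The authors deposited a normalized signal per gene: the submitters' processing notes name bcl2fastq 2.17 and FastQC, then Trimmomatic 0.38, STAR 2.6.1d with the build GRCm38, and DESeq2 1.22.2. Which tool counted reads, on which annotation and with or without strand, is not given in the sources used here. Every deposited value was a whole multiple of what 1 read is worth in its library (100% within a tolerance of 0.001), so reads were recovered as 19.9 to 30.5 M per library; totals hold the genes of the table only. Labels tie each library to a mouse, and replicate numbers to nothing else.

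Genes averaging a value of 10 or more over 24 libraries (14040 of 22392) were fitted with limma 3.58.1 in R 4.3.3 on log2(value + 1), with 3 groups in 1 fit, no covariate and Benjamini-Hochberg adjustment over all genes within a contrast. Fold changes are on that scale. Ratios were tested with exact permutations in Python 3.11.15 with NumPy 2.4.6. Alternatives used other pseudocounts, filters and scalings, edgeR 4.0.16, DESeq2 1.42.0, the replicate number as a block, and each library left out. The fit was checked on data drawn with known changes.

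The genes and lists were chosen with earlier results of these data known. Values in every group are given for the 2 genes with the largest called change in C26 against CT per role, genes called against their role's direction, and members of the ratio pairs; other lists name up to 3 called genes each. Strand-overlapping genes are uncertain.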

Additional observations from a re-analysis of the deposited data

Results flagged for a closer look

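Each gene's 8 values per group were checked for a mouse far from the other 7, by the gap to its nearest neighbour as a share of the range (above 0.526). In 153 groups 9 were found, and chance gives about 1 in 20. C26-CHO mouse 7 was far above its group for Srp9 (1470.3), Srp68 (1736.5), Sec63 (4447) and Copg1 (2497). C26-CHO mouse 1 was far below its group for Srp54a (934), Stt3b (2489) and Tmed10 (3055), genes that rose in C26 against CT. C26 mouse 3 was low for Sec31a (2740.3), and CT mouse 7 was high for Kdelr3 (5.55), a value of a few reads.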

How the results depend on the processing

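Other pseudocounts, filters and TMM, edgeR with the deposited size factors and DESeq2 left the counts of called genes within 1.5 times. Genes called lower in C26 against CT numbered 4 in the main result, 1 under quantile normalization, 2 by edgeR with TMM, 13 at equal read totals, and 2 to 5 with each library left out (2 without CT 1, CT 8 or C26 4). At equal read totals 18 of the 50 genes were higher in C26 against CT. Of all 14040 tested genes 2337 were higher and 8196 lower there. In C26-CHO against CT 22 of the 50 were higher and 8 lower, and of all tested genes 2222 and 7954. Under quantile normalization 1 of the 50 was lower in that comparison. The cause of these moves was not tested.

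At equal read totals the C26 against CT values of Srp9, Srp68, Srp72, Sec61b, Sec63 and Sec11c were -0.20, -0.24, -0.0709, -0.0541, -0.32 and -0.0763. Those of Sar1a, Sec31a, Sec24c, Copa, Copb2, Cope, Copz1 and Arcn1 were -0.0946, -0.25, -0.0973, -0.12, -0.0612, -0.15, -0.12 and -0.19. Lman1, Tmed2, Tmem258 and Atf6 had -0.0653, -0.0566, -0.0434 and -0.14, and Srp68, Sec63 and Sec31a each -0.14 in C26-CHO against CT. Quantile normalization gave Sec62 0.10 and Copb1 0.21, and Sec24a 0.0029 in C26-CHO against CT. Copb1 ranged from -0.0355 to 0.014 with each library left out.

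Same-numbered mice had a correlation of deviations over 0.1 in 3, 2 and 4 of 8 pairs in the 3 comparisons. With the replicate block 9963, 2063 and 9489 tested genes had a limma unadjusted p under 0.05, against 9675, 1832 and 9205 without it. Whether the replicate number marks a shared condition was not tested further. With the replicate block, 41 genes were higher and 5 lower in C26 against CT. For the ratios the block was an exact sign-flip test over the 8 same-numbered pairs, whose smallest p is 0.00781. It took Sec24d to Sec24c (0.27) to an adjusted p of 0.05 (exact sign-flip test). Kdelr3 to Kdelr1 in C26-CHO against CT (1.01) had 0.0662, and Kdelr2 to Kdelr1 in C26 against CT (0.10) had 0.0402 (exact sign-flip tests). A pseudocount of 5 gave Kdelr3 to Kdelr1 0.40 in C26-CHO against CT (exact permutation test, adjusted p = 0.112).

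With each library left out, ratio differences in C26 against CT ran from -0.14 to -0.0807 for Sec11c to Sec11a. In C26-CHO against C26 they ran from 0.12 to 0.20 for Sec24d to Sec24a, -0.0527 to 0.0253 for Sec11c to Sec11a, -0.27 to 0.0437 for Kdelr3 to Kdelr1, -0.0618 to 0.0292 for Sar1b to Sar1a and -0.00645 to 0.0666 for Kdelr2 to Kdelr1, which had 0.0786 to 0.16 in C26-CHO against CT. Kdelr3 had as few as 1 read in a library, which limits its ratios.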
